A study of Mus musculus with 18 samples.

Results

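The phagocyte NADPH oxidase was followed through 6 genes, *Cybb*, *Cyba*, *Ncf1*, *Ncf4*, *Rac1* and *Rac2*, picked by gene symbol out of the 55573 genes in the table. All 6 passed the filter on low counts, which kept 13443 genes. The enzyme takes electrons from NADPH and passes them across the membrane of the phagosome or the cell surface to oxygen, which makes superoxide. Its core is a membrane flavocytochrome, built from the catalytic subunit encoded by *Cybb* and a stabilizing partner encoded by *Cyba*. The other subunits wait in the cytosol until the cell is activated; among them, *Ncf1* encodes the organizer that docks on the *Cyba* product, *Ncf4* a lipid-binding adaptor, and *Rac1* and *Rac2* encode small GTPases, one of which must bind the complex. Patients who lack a subunit develop chronic granulomatous disease, in which phagocytes fail to kill many bacteria and fungi.

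The cells were mouse peritoneal macrophages (C57BL/6), sorted from lavage fluid by CD11b and F4/80. Zeb1f/f mice served as wild type (here *Zeb1* WT) and Zeb1f/f LysM Cre mice as the myeloid knockout (here *Zeb1* ∆M), so that both genotypes carry floxed *Zeb1* alleles. Cre is driven by the endogenous *Lyz2* locus, which is active in macrophages and also in other myeloid cells, neutrophils included. Mice of each genotype received a single LPS dose (LPS), 2 LPS doses (LPS + LPS, which leaves macrophages less responsive), or Metformin before a single LPS dose (Metformin + LPS). Each of the 6 groups had 3 libraries, each from 2 to 3 pooled mice, and every group received LPS, so no value below is a resting level. The age and sex of the mice are not given in the sources used here. The study asked whether ZEB1, a transcription factor that mostly represses, sets the response of macrophages to LPS and whether Metformin mimics the state after LPS + LPS, with reactive oxygen species among its readouts.

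Total counts per library ran from about 14053700 to 30570400. *Zeb1* stood at 6.41 to 7.21 CPM in *Zeb1* WT and 1.38 to 3.01 in *Zeb1* ∆M in LPS, and at 12.3 to 12.9 against 3.92 to 4.79 in Metformin + LPS. In LPS + LPS it was low in both genotypes, at 0.912 to 2.52 and 0.738 to 0.926 CPM, a log2 difference of -0.88 that was not called (edgeR quasi-likelihood test, adjusted p = 0.35). All 8 macrophage markers and all 10 markers of large peritoneal macrophages were counted in each of the 18 libraries. The 6 Metformin + LPS libraries carry another series of library codes than the other 12, and genes that overlap ribosomal RNA took 4.24 to 14.0% of their counts against 0.287 to 2.29%, so Metformin and library series cannot be told apart. The TMM factors, which scale each library for its composition, were 0.867 to 1.06 in LPS, against 1.42 to 1.56 after the second dose. With Metformin they were 0.445 to 0.708 in *Zeb1* WT and 0.843 to 0.879 in *Zeb1* ∆M. Replicate 1 of *Zeb1* WT LPS + LPS stood apart: without it the genotype calls over all genes in LPS + LPS went from 91 to 397, and members called stayed at 0.

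Values for a gene are TMM-normalized CPM (counts relative to the scaled total of the library), with the SD over 3 libraries. Because these are bulk samples, fewer cells that use a gene and less RNA per cell cannot be told apart. Positions are those of GENCODE vM21 on GRCm38.

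*Cybb* (ENSMUSG00000015340.10, chromosome X, 9435252 to 9487771, minus strand) was the most abundant of the 6 by counts, with 40979 to 112586 in each library. In LPS it stood at 4387, 4933 and 3814 CPM in *Zeb1* WT and at 4252, 4780 and 4387 in *Zeb1* ∆M. In LPS + LPS it stood at 2098, 1565 and 1829 in *Zeb1* WT and at 2221, 2534 and 2226 in *Zeb1* ∆M. In Metformin + LPS it stood at 6017, 5205 and 8562 in *Zeb1* WT and at 3900, 3714 and 5020 in *Zeb1* ∆M. On this scale all 6 LPS + LPS libraries were below the other 12, and the *Zeb1* WT Metformin + LPS libraries were above all others. In CPM of the plain library total neither held: *Zeb1* ∆M LPS + LPS, at 3345 to 3809, and *Zeb1* WT Metformin + LPS, at 3404 to 3812, overlapped, and LPS reached 5088. The lowest group mean was 1831 ± 266 CPM, in *Zeb1* WT LPS + LPS. The highest was 6595 ± 1751, in *Zeb1* WT given Metformin, and both LPS groups and *Zeb1* ∆M Metformin + LPS overlapped between these ends.

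*Cyba* (ENSMUSG00000006519.11, chromosome 8, 122424776 to 122432930, minus strand) encodes the partner without which the flavocytochrome is unstable. It stood at 345, 437 and 428 CPM in *Zeb1* WT LPS and at 450, 263 and 351 in *Zeb1* ∆M LPS. In LPS + LPS it stood at 518, 522 and 825 in *Zeb1* WT and at 583, 535 and 634 in *Zeb1* ∆M. In Metformin + LPS it stood at 882, 591 and 1299 in *Zeb1* WT and at 464, 433 and 550 in *Zeb1* ∆M. Both LPS + LPS groups lay above both LPS groups, whereas neighbours in the order of the 6 group means, from 924 ± 356 in *Zeb1* WT Metformin + LPS down to 355 ± 93.9 in *Zeb1* ∆M LPS, all overlapped. The predicted gene *Gm20388* overlaps *Cyba* on the opposite strand and had 48 to 452 counts a library, against 5156 to 26315 for *Cyba*.

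*Ncf1* (ENSMUSG00000015950.13, chromosome 5, 134220053 to 134229625, minus strand) encodes the organizer that carries the cytosolic subunits to the membrane once it is phosphorylated. It stood at 135, 132 and 115 CPM in *Zeb1* WT LPS and at 42.1, 170 and 77.6 in *Zeb1* ∆M LPS. In LPS + LPS it stood at 357, 594 and 266 in *Zeb1* WT and at 288, 197 and 202 in *Zeb1* ∆M. In Metformin + LPS it stood at 188, 181 and 175 in *Zeb1* WT and at 133, 122 and 75.0 in *Zeb1* ∆M. The 6 LPS + LPS libraries were the highest of the 18, and *Zeb1* ∆M LPS was the most scattered group, with an SD of 68.5% of its mean against 3.45% in *Zeb1* WT Metformin + LPS. Replicate 1 of *Zeb1* ∆M LPS held the lowest value, from 567 counts. *Gtf2ird2* overlaps *Ncf1* on the opposite strand and had 8 to 181 counts a library.

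*Ncf4* (ENSMUSG00000071715.12, chromosome 15, 78244801 to 78262580, plus strand) encodes the adaptor that binds a phosphoinositide of the phagosome membrane. It stood at 69.6, 59.5 and 66.2 CPM in *Zeb1* WT LPS and at 67.6, 70.4 and 72.2 in *Zeb1* ∆M LPS. In LPS + LPS it stood at 230, 250 and 364 in *Zeb1* WT and at 241, 193 and 221 in *Zeb1* ∆M. In Metformin + LPS it stood at 95.1, 115 and 136 in *Zeb1* WT and at 75.6, 82.0 and 73.5 in *Zeb1* ∆M. LPS + LPS lay above the other 12 libraries, and, on this scale, Metformin + LPS lay above LPS without overlap. In CPM of the plain library total LPS + LPS was still highest, at 290.1 or more, but Metformin + LPS (53.8 to 81.5) overlapped LPS (51.5 to 75.0). The mean of *Zeb1* WT LPS + LPS, 281 ± 72.0 CPM, was 4.32 times that of *Zeb1* WT LPS, 65.1 ± 5.18, the widest span between group means of the 6 genes.

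*Rac1* (ENSMUSG00000001847.14, chromosome 5, 143503634 to 143528036, minus strand) encodes the GTPase found in most cell types, which also drives actin remodelling. It stood at 328, 345 and 257 CPM in *Zeb1* WT LPS and at 236, 258 and 277 in *Zeb1* ∆M LPS. In LPS + LPS it stood at 509, 433 and 319 in *Zeb1* WT and at 411, 350 and 280 in *Zeb1* ∆M. In Metformin + LPS it stood at 123, 481 and 705 in *Zeb1* WT and at 413, 427 and 331 in *Zeb1* ∆M. Each group overlapped its neighbour in the order of the means. *Zeb1* WT Metformin + LPS held both ends of the range, the lowest value in replicate 1, from 1295 counts, and the highest in replicate 3. *Daglb* overlaps *Rac1* on the opposite strand, with 202 to 1223 counts a library. The library kit keeps strand, but whether the counting used it is not given in the sources used here, so reads of these overlapping pairs may be mixed.

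*Rac2* (ENSMUSG00000033220.7, chromosome 15, 78559167 to 78572783, minus strand) encodes the GTPase restricted to blood cells. It stood at 651, 770 and 629 CPM in *Zeb1* WT LPS and at 704, 628 and 651 in *Zeb1* ∆M LPS. In LPS + LPS it stood at 692, 904 and 672 in *Zeb1* WT and at 724, 623 and 665 in *Zeb1* ∆M. In Metformin + LPS it stood at 1158, 1054 and 1860 in *Zeb1* WT and at 641, 699 and 863 in *Zeb1* ∆M. On this scale the 3 *Zeb1* WT Metformin + LPS libraries were above all others, and the other 5 groups overlapped in turn, with means from 661 ± 39.1 to 756 ± 129 CPM. In CPM of the plain library total they were at 655 to 828, below all 6 LPS + LPS libraries (936 to 1413).

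**Figure D1:**
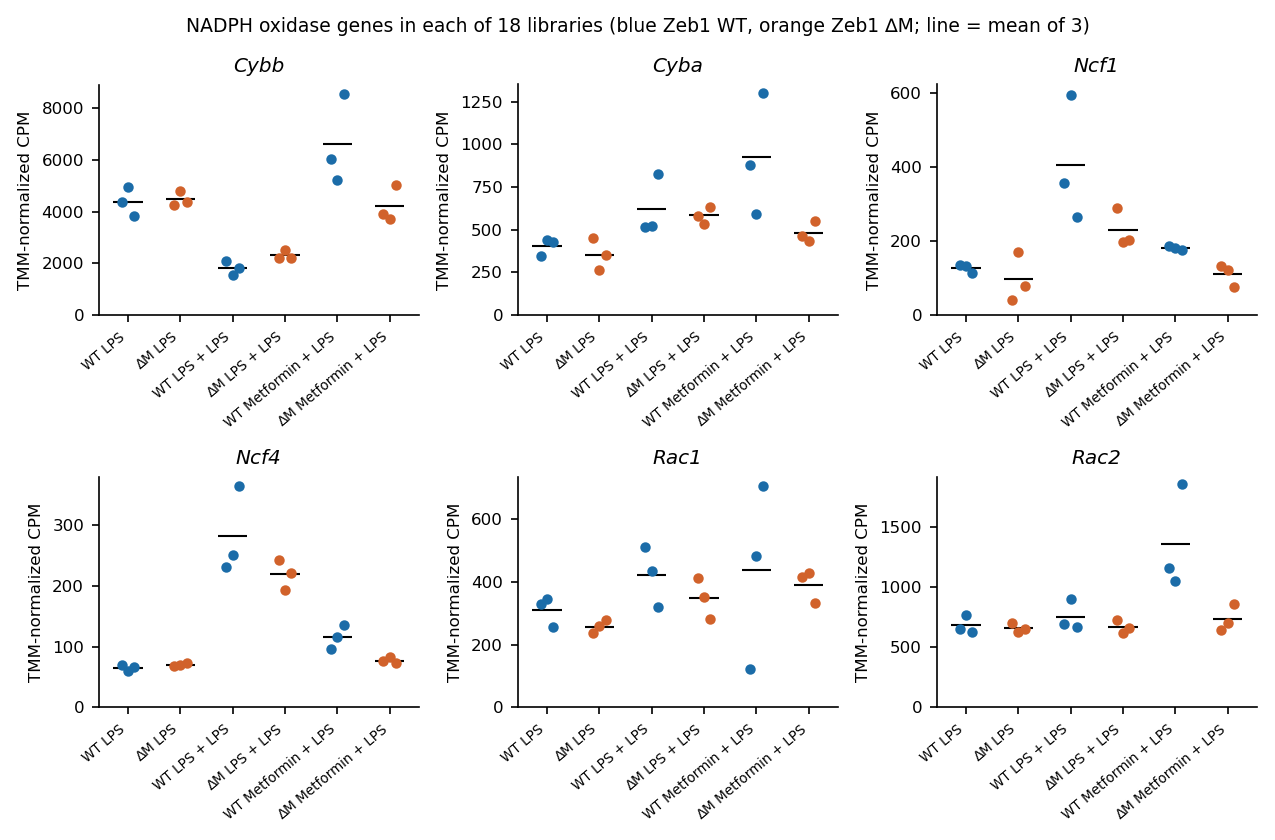
Level of each of the 6 oxidase genes in TMM-normalized CPM (y axis, linear, from 0) in the 6 groups (x axis); points are libraries, blue for *Zeb1* WT and orange for *Zeb1* ∆M, and lines are means of 3. *Cybb* is lowest and *Ncf1* and *Ncf4* highest in LPS + LPS, and the *Zeb1* WT Metformin + LPS points of *Cybb* and *Rac2* lie above all other libraries; with library totals in place of TMM, *Ncf1* and *Ncf4* stay highest in LPS + LPS and the *Cybb* and *Rac2* patterns do not hold.

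The RefSeq promoter table for GRCm38.p6 held 3 of the 6 genes, *Cybb*, *Cyba* and *Ncf1*, which moved in different directions in LPS + LPS. Each window below runs from 250 bases before to 30 bases from the RefSeq start site on, 5′ to 3′ along the gene. The whole *Cybb* window lies inside the GENCODE span of the gene given above, so this start site is not the 5′ end of that span. Capitals mark 5 motifs searched on both strands. GAGGAA is a purine box of the kind read by PU.1, and TTCNNNGAA a palindrome of the STAT type. The box CCAAT and the GC box GGGCGG bind general factors. CAGGTG is an E-box of the kind read by ZEB1.
*Cybb*, chrX:9469295-9469574, minus strand: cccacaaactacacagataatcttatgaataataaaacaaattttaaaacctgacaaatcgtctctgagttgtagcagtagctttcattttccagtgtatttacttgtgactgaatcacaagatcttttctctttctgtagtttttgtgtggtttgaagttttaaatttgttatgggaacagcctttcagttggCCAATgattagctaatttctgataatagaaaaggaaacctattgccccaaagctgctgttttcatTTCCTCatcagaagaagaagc
*Cyba*, chr8:122432911-122433190, minus strand: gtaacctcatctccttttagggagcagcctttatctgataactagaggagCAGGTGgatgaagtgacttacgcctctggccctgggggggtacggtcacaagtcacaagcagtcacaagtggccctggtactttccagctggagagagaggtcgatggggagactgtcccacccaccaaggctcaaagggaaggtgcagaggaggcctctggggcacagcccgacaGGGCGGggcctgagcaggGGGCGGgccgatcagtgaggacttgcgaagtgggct
*Ncf1*, chr5:134229596-134229875, minus strand: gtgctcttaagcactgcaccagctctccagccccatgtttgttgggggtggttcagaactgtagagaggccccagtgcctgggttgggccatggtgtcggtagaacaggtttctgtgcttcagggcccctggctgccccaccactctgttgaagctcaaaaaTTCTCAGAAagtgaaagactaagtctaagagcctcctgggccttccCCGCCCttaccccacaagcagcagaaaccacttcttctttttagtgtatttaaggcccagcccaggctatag
The windows differed in composition, with G and C making up 34.3% of *Cybb*, 60.0% of *Cyba* and 53.9% of *Ncf1*. *Cybb* held CCAAT, starting 56 bases before the start site, and the purine box on the reverse strand just after it. *Cyba* held 2 GC boxes and 1 CAGGTG, and *Ncf1* held 1 TTCNNNGAA and 1 GC box on the reverse strand. Of 32851 windows of this length in the table, 26% held GAGGAA, 7.83% TTCNNNGAA, 36.1% CCAAT, 34.7% GGGCGG and 19.1% CAGGTG, so each motif is common and a match marks letters, not a bound site. No motif in capitals overlapped another.

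A second LPS dose went with lower *Cybb* and with higher *Ncf1* and *Ncf4* in both genotypes, with higher *Cyba* in *Zeb1* ∆M, and with no call for *Rac1* or *Rac2*. In *Zeb1* WT, 2 of the 6 were higher (*Ncf4* and *Ncf1*), where 18.6% of all genes tested were higher, and 1 was lower (*Cybb*), where 18% were lower. In *Zeb1* ∆M, 3 were higher (*Ncf4*, *Ncf1* and *Cyba*), against 15.8% of all genes, and 1 was lower (*Cybb*), against 16.9%. Calls are edgeR quasi-likelihood tests at a Benjamini-Hochberg adjusted p under 0.05 over all genes tested, and log2 fold changes are given with their standard error (SE). Over the 6 genes the median log2 fold change was 0.53 in *Zeb1* WT and 0.58 in *Zeb1* ∆M, beside 0.08 and 0.01 over all genes.

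*Ncf4* rose by 2.11 (SE 0.19, adjusted p = 1.1e-07) in *Zeb1* WT and by 1.64 (SE 0.18, 2.3e-06) in *Zeb1* ∆M, which is 4.32-fold and 3.12-fold. *Ncf1* rose by 1.67 (SE 0.38, 0.0020) and 1.24 (SE 0.38, 0.017). *Cybb* fell by 1.26 (SE 0.22, 2.0e-04) and by 0.94 (SE 0.22, 0.0028). *Cyba* stood 0.62 higher in *Zeb1* WT (SE 0.26, 0.073), short of the threshold, and rose by 0.72 in *Zeb1* ∆M (SE 0.26, 0.044). The *Zeb1* WT and *Zeb1* ∆M comparisons use different libraries, and for these 4 genes LPS + LPS and LPS libraries did not overlap in either genotype, where 24.4% and 26.9% of all genes were higher without overlap and 22.6% and 24.8% lower. The GTPases were not called, although the *Rac1* libraries of *Zeb1* ∆M did not overlap: *Rac1* had 0.44 (SE 0.38, 0.39) and 0.43 (SE 0.38, 0.42), and *Rac2* 0.15 (SE 0.21, 0.62) and 0.02 (SE 0.21, 0.95). For *Rac2* the interval of ± 1.96 SE ran from -0.27 to 0.56 and from -0.39 to 0.43.

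The calls of *Ncf4* and *Cybb* held in all 12 fits with 1 library left out, and those of *Ncf1* in *Zeb1* WT in all 6. In *Zeb1* ∆M *Ncf1* was not called without replicate 1 or 3 of LPS or replicate 1 of LPS + LPS (0.89, 1.16 and 1.05, adjusted p = 0.070, 0.063 and 0.073), and *Cyba* was called only without replicate 1 of LPS (0.93, 0.026), with adjusted p from 0.065 to 0.17 in the other 5 fits. With library totals in place of TMM the median of all genes moved by 0.65 in *Zeb1* WT and 0.59 in *Zeb1* ∆M. *Cybb* was then at -0.61 (adjusted p = 0.0064) and -0.36 (0.10), so its call in *Zeb1* ∆M was lost, and *Cyba*, *Rac1* and *Rac2* were called higher in both genotypes. Without replicate 1 of *Zeb1* WT LPS + LPS, *Ncf4* had 2.23, *Ncf1* 1.75 and *Cybb* -1.37.

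Markers of other myeloid cells moved with this comparison. Of 17 neutrophil markers tested, 8 were higher and 1 lower in *Zeb1* WT and 9 higher and 2 lower in *Zeb1* ∆M, and neutrophils use this oxidase heavily. The 18 listed markers summed in *Zeb1* WT to 877 to 1238 CPM after 1 LPS dose and 1143 to 4698 after both doses. In *Zeb1* ∆M the sums were 674 to 800 and 963 to 1784, and none of the markers was at 0 throughout any of these groups. *Csf3r* alone gave 360 to 614 CPM in these groups, and *Ly6g* at most 1.61. In replicates 1, 2 and 3 of *Zeb1* WT LPS + LPS the sums were 1143, 4698 and 3715 CPM. In the same order *Ncf4* was at 230, 250 and 364 CPM and *Ncf1* at 357, 594 and 266, and replicate 1 is the library that stood apart. Of 7 markers of monocytes and small peritoneal macrophages, 3 were higher and 3 lower in each genotype, and of 10 markers of large peritoneal macrophages 9 were lower in *Zeb1* WT and 7 in *Zeb1* ∆M. B cell markers were lower in 9 of 12 and 1 of 12, none higher. Of 4 eosinophil markers tested, 1 was higher (*Prg2*) and 1 lower in *Zeb1* WT, and 0 higher and 3 lower in *Zeb1* ∆M. Of 4 dendritic cell markers tested, 2 were lower in *Zeb1* WT and 1 in *Zeb1* ∆M, none higher, with *Cd209a* at -7.55 and -9.38. Of 8 macrophage markers, 0 were higher and 3 lower in *Zeb1* WT, and 3 were higher and 3 lower in *Zeb1* ∆M. Macrophage markers, *Lyz2* included, summed in *Zeb1* WT to 55377 to 72098.6 CPM in LPS and 18031.8 to 27009.5 in LPS + LPS. In *Zeb1* ∆M they summed to 33914.1 to 58499.4 and 16203.5 to 19902.5. The part of these shifts in the results for the 6 genes was not tested.

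**Figure D2:**
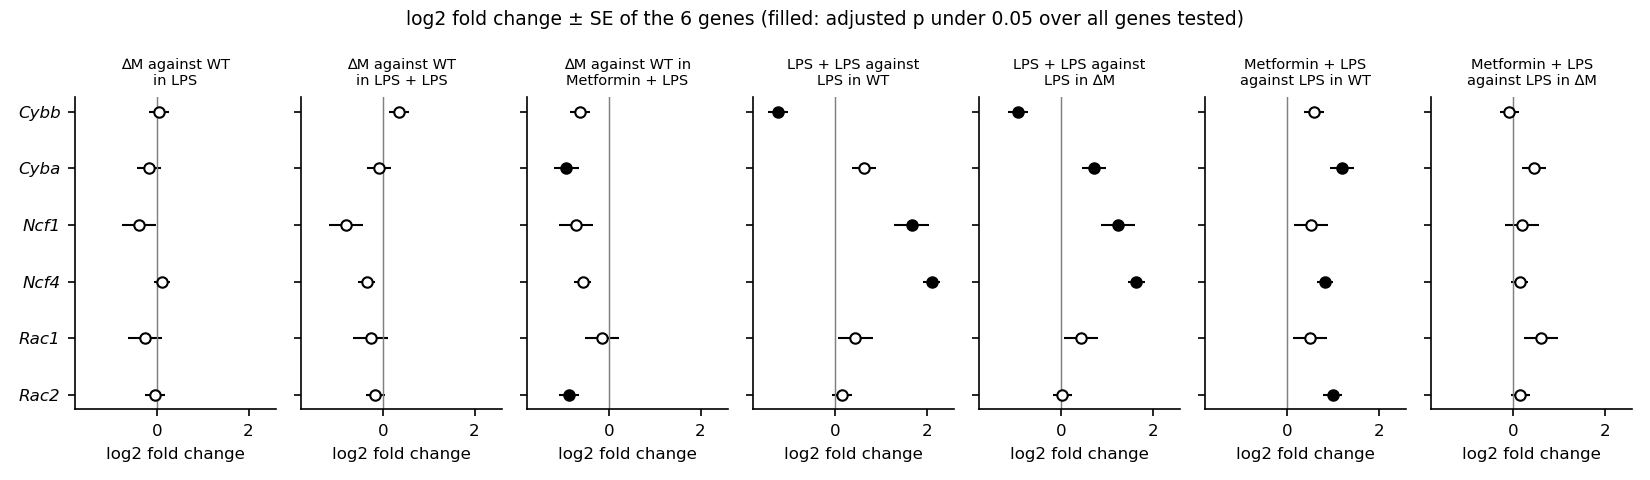
log2 fold change (x axis) of the 6 oxidase genes (y axis) in 7 comparisons, 1 per panel; circles are edgeR estimates, bars are ± 1 SE, and filled circles had an adjusted p under 0.05 over all genes tested. *Cybb* lies left of 0 and *Ncf1* and *Ncf4* right of 0 in both LPS + LPS panels, and no circle is filled for *Zeb1* deletion in LPS or in LPS + LPS.

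Per length, the order of the genes turned over in LPS + LPS. Levels per kilobase of merged exon (1039 bases for *Cyba* to 5808 for *Cybb*) allow genes to be compared, though they depend on which transcripts are used. In *Zeb1* WT LPS, *Cybb* came first at 754 ± 96.4 CPM per kb, above *Cyba* at 388 ± 48.9 and *Rac2* at 220 ± 24.5, with *Rac1*, *Ncf1* and *Ncf4* at 68.9, 34.8 and 32.2. In *Zeb1* WT LPS + LPS, *Cyba* came first at 599 ± 169, above *Cybb* at 315 ± 45.8, and the ranges of this pair did not overlap. The same 2 genes stood at 562 ± 47.5 and 401 ± 30.8 in *Zeb1* ∆M LPS + LPS, again without overlap. *Cybb* led in the other 4 groups, although in *Zeb1* WT Metformin + LPS its range overlapped that of *Cyba* (1135 ± 302 and 890 ± 343). *Ncf1* and *Ncf4* were below *Rac1* in both LPS and both Metformin + LPS groups by mean.

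**Figure D3:**
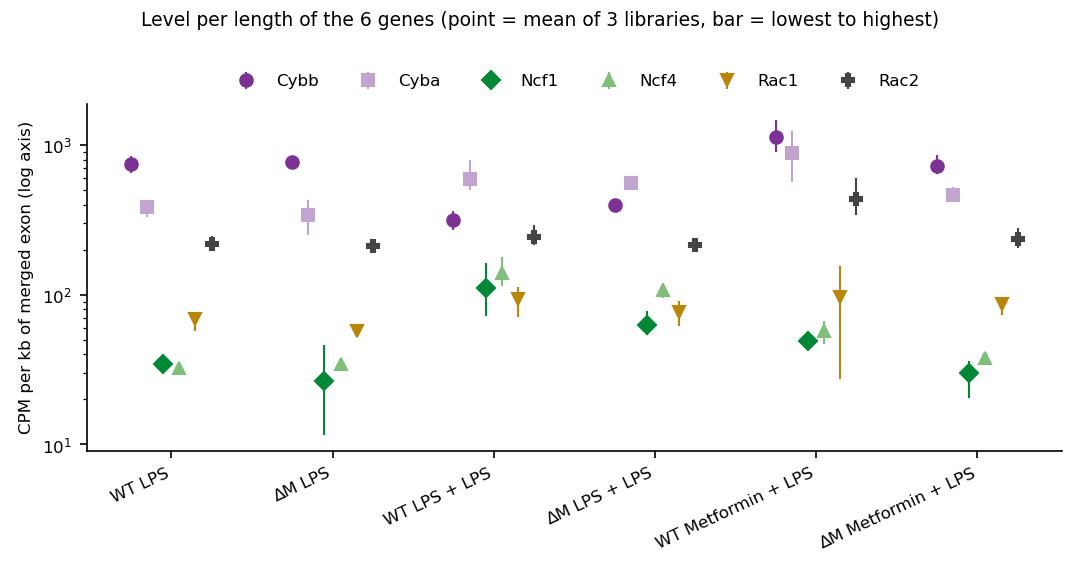
Level of the 6 oxidase genes per kilobase of merged exon (y axis, log scale, CPM per kb) in the 6 groups (x axis); points are means of 3 libraries and bars run from the lowest to the highest. *Cybb* is the top point in LPS and *Cyba* the top point in LPS + LPS, in both genotypes.

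A ratio of counts within 1 library does not depend on how libraries are scaled, so 4 ratios were followed over the groups; since the genes differ in length, only changes in a ratio are read. The *Ncf1* to *Cybb* ratio was 0.0308, 0.0268 and 0.0301 in *Zeb1* WT LPS and 0.170, 0.380 and 0.145 in *Zeb1* WT LPS + LPS. In *Zeb1* ∆M it was 0.00991, 0.0357 and 0.0177 in LPS and 0.130, 0.0778 and 0.0908 in LPS + LPS. All 6 LPS + LPS libraries were above all 6 LPS libraries, and the mean log2 ratio differed by 2.85 (7.23-fold) in *Zeb1* WT and by 2.40 (5.27-fold) in *Zeb1* ∆M. The *Cyba* to *Cybb* ratio was 3.62-fold higher in LPS + LPS in *Zeb1* WT and 3.24-fold in *Zeb1* ∆M, and 1.48-fold higher in Metformin + LPS than in LPS in both. The groups did not overlap in any of these 6 comparisons. Exact two-sided permutation tests over 3 against 3 libraries gave p = 0.1 in each, the smallest they can give, and 0.4 after adjustment over the 28 comparisons made. The *Ncf1* to *Cybb* ratio in *Zeb1* ∆M LPS + LPS was below that of *Zeb1* WT LPS + LPS without overlap (log2 difference -1.12, exact p = 0.1, adjusted 0.4). The *Ncf4* to *Ncf1* and *Rac2* to *Rac1* ratios overlapped between groups in all 7 comparisons.

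**Figure D4:**
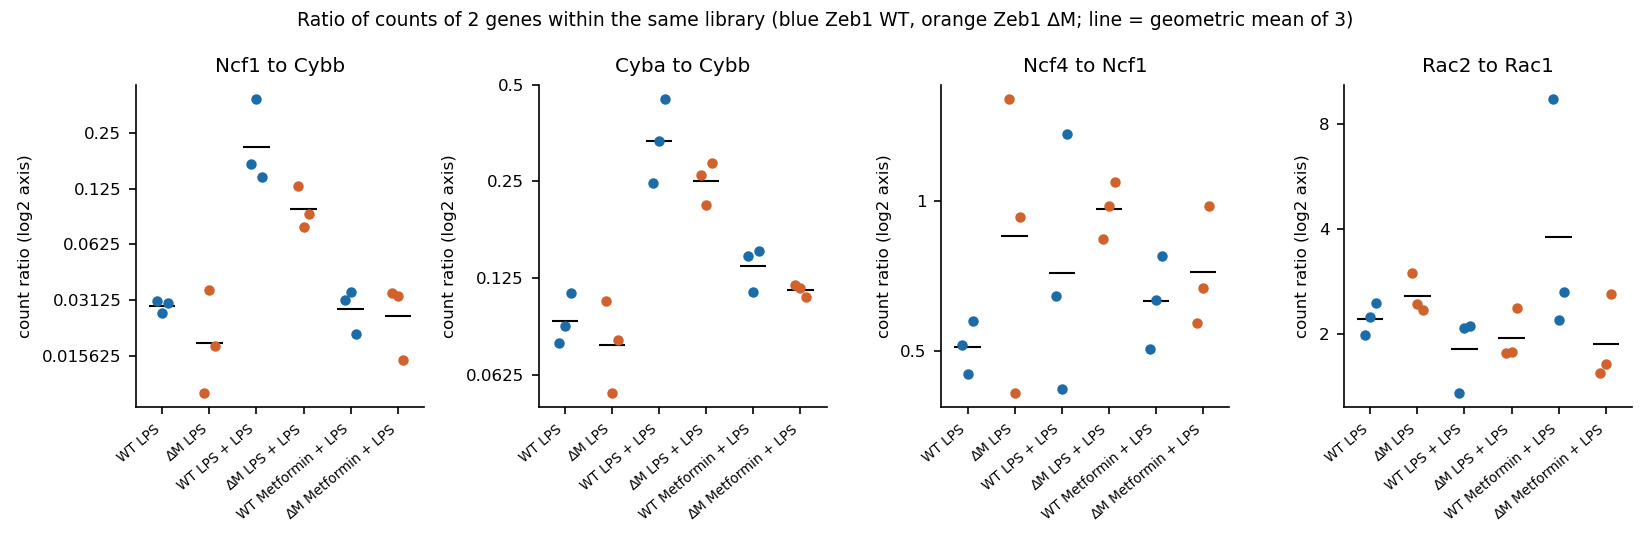
Ratio of the counts of 2 oxidase genes within the same library (y axis, log2 scale) in the 6 groups (x axis); points are libraries, blue for *Zeb1* WT and orange for *Zeb1* ∆M, and lines are geometric means of 3. The *Ncf1* to *Cybb* and *Cyba* to *Cybb* points of LPS + LPS lie above those of LPS, and 1 *Zeb1* WT Metformin + LPS library has a *Rac2* to *Rac1* ratio of 9.40.

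None of the 6 genes was called for *Zeb1* deletion in LPS or in LPS + LPS, where 1.15% and 0.677% of all genes were called. In LPS the log2 fold changes ran from -0.40 for *Ncf1* (SE 0.37, adjusted p = 0.70) to 0.11 for *Ncf4* (SE 0.18, 0.86), and the groups of all 6 genes overlapped, where 10.1% of all genes were higher and 10.8% lower without overlap. At an unadjusted p under 0.05 none of the 6 passed in LPS, beside 13.7% of all genes, and DESeq2 also called 0. The intervals of ± 1.96 SE were narrowest for *Ncf4* (-0.25 to 0.46) and widest for *Rac1* (-1.01 to 0.47). Neutrophil markers were lower in 5 of 17 and B cell markers in 4 of 12 in the same comparison, and their part was not tested. In LPS + LPS *Ncf1* stood 0.83 lower in *Zeb1* ∆M (SE 0.37, unadjusted p = 0.040, adjusted p = 0.38), and *Ncf4* 0.37 lower (SE 0.18, adjusted p = 0.45). *Ncf1* was the 1 gene of 6 with an unadjusted p under 0.05, beside 11.7% of all genes, and DESeq2 called 0. *Cybb* stood 0.35 higher in *Zeb1* ∆M (SE 0.22, adjusted p = 0.59), with all 3 libraries above those of *Zeb1* WT, as 9.07% of all genes were. In the same comparison 5 of 10 markers of large peritoneal macrophages were higher (median log2 fold change 1.38), with sums of 2232 to 5177 CPM in *Zeb1* WT and 5850 to 10190 in *Zeb1* ∆M and none at 0. No neutrophil or eosinophil marker was called, with medians of -1.54 over 17 and -3.03 over 4 and with *Epx* and *Ear1* at 0 in both groups. Their part was not tested. The change of the genotype difference between LPS and LPS + LPS, tested as 1 contrast, was called for none of the 6 and for 0% of all genes by edgeR (6.99% at an unadjusted p under 0.05).

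With *Zeb1* deletion in Metformin + LPS, 2 oxidase genes were called lower. *Rac2* fell by 0.89 (SE 0.21, adjusted p = 0.018) and *Cyba* fell by 0.94 (SE 0.27, 0.044), so that 2 of 6 were lower where 4.61% of all genes were, and none was higher, where 1.26% of all genes were. *Cybb* (-0.65, SE 0.22, 0.089), *Ncf4* (-0.58, SE 0.18, 0.065) and *Ncf1* (-0.72, SE 0.37, 0.29) missed the threshold, and *Rac1* had -0.16 (SE 0.38, 0.86). On the TMM scale, in 5 of the 6 genes, all but *Rac1*, the *Zeb1* ∆M libraries were below all *Zeb1* WT libraries, where 12.9% of all genes were. In CPM of the plain library total these 5 all overlapped, as in *Rac2*, with 655 to 828 in *Zeb1* WT and 541 to 757 in *Zeb1* ∆M. The median of the 6 was -0.68, beside 0.03 over all genes, and with library totals -0.08, beside 0.60. The calls rested on the scaling and on the libraries: with library totals alone *Cyba* had -0.27 (adjusted p = 0.33) and *Rac2* -0.24 (0.33), while the median of all genes moved to 0.60, so that relative to it the genes stood at -0.87 and -0.84. With only these 2 groups in the fit neither was called (0.092 and 0.095). *Cyba* was called only without replicate 2 of *Zeb1* WT (-1.20, 0.0091), with adjusted p from 0.058 to 0.22 in the other 5 fits, and *Rac2* lost its call when replicate 3 of *Zeb1* WT or replicate 1 or 2 of *Zeb1* ∆M was left out (-0.60, -0.82 and -0.87, with 0.081, 0.095 and 0.075). Neutrophil markers were lower in 8 of 17 in this comparison, monocyte markers in 5 of 7, B cell markers in 6 of 12, eosinophil markers in 3 of 4 and macrophage markers in 2 of 8, none higher. The 2 macrophage markers were *Lyz2* (-2.33), the locus that drives Cre, and *Fcgr1* (-1.003). *Mertk* and *Itgam* stood 0.42 and 0.36 higher, not called, and the rest lower, not called. Macrophage markers, *Lyz2* included, summed to 54608 to 124476 CPM in *Zeb1* WT and 26933 to 36667 in *Zeb1* ∆M. Eosinophil markers summed to 45.9 to 68.4 and 4.01 to 5.69, with *Epx* at 0 in both groups and *Prg2* and *Ear1* at 0 in *Zeb1* ∆M. Monocyte markers summed to 972 to 1800 CPM in *Zeb1* WT and 250 to 358 in *Zeb1* ∆M, with none at 0, and the part of these lists in the result was not tested.

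The change of the genotype difference from LPS to Metformin + LPS was called for none of the 6 genes and for 0.156% of all genes. It had -0.84 for *Rac2* (SE 0.30, unadjusted p = 0.012, adjusted p = 0.24), -0.69 for *Ncf4* (SE 0.26, unadjusted 0.015, adjusted 0.25) and -0.68 for *Cybb* (SE 0.31, unadjusted 0.040, adjusted 0.34). These 3 of 6 had an unadjusted p under 0.05, beside 13.6% of all genes, and DESeq2 called 0 of the 6. *Zeb1* deletion in LPS and this contrast share libraries, so they are not independent.

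Metformin before LPS went with higher levels of 3 of the 6 genes in *Zeb1* WT, where 13% of all genes were higher, and with 0 called in *Zeb1* ∆M, where 26.2% of all genes were called. In *Zeb1* WT *Cyba* rose by 1.20 (SE 0.27, adjusted p = 0.0033), *Rac2* by 0.99 (SE 0.21, 0.0025) and *Ncf4* by 0.83 (SE 0.18, 0.0030). *Cybb* had 0.59 (SE 0.22, 0.054), *Ncf1* 0.51 (SE 0.37, 0.34) and *Rac1* 0.49 (SE 0.38, 0.37). On the TMM scale the 5 genes other than *Rac1* were above all *Zeb1* WT LPS libraries, as were 19.5% of all genes. In CPM of the plain library total only *Cyba* stayed above them, at 418 or more against at most 408. *Cybb* passed the threshold with median-of-ratios factors (0.63, adjusted p = 0.047). *Rac1* depended on replicate 1, with 0.97 (adjusted p = 0.0094) without it and -0.01 without replicate 3. In *Zeb1* ∆M the largest value was that of *Rac1*, 0.60 (SE 0.38, 0.26), then *Cyba*, 0.44 (SE 0.26, 0.23), and at an unadjusted p under 0.05 none of the 6 passed, beside 38% of all genes. In *Zeb1* ∆M *Ncf4* and *Rac1* libraries did not overlap with LPS on the TMM scale and were higher, as were 20.5% of all genes. DESeq2 called 0 of the 6 there and 4 in *Zeb1* WT, and its shares of all genes in these comparisons are not given here.

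The *Zeb1* WT calls held in each of the 6 fits with 1 library left out, with adjusted p of at most 0.022, and with median-of-ratios or upper-quartile factors, but none held with library totals. With totals *Cyba* had 0.40 (adjusted p = 0.13), *Rac2* 0.22 (0.34) and *Ncf4* 0.09 (0.74), and *Cybb*, *Ncf1* and *Rac1* turned to -0.17, -0.20 and -0.26, while the median of all genes moved by -0.71 to -0.74. Relative to that median *Cyba* stood at 1.15, *Rac2* at 0.96 and *Ncf4* at 0.83. In CPM of the plain library total, *Rac2* was at 655, 746 and 828 in *Zeb1* WT Metformin + LPS and at 647, 667 and 600 in *Zeb1* WT LPS, which overlap. Neutrophil markers summed to 616 to 699 CPM in *Zeb1* WT Metformin + LPS, below LPS, with *Elane* at 0 in every library, and 7 of 17 were lower and 0 higher. Of 8 macrophage markers 6 were higher and of 7 monocyte markers 5, and the part of these in the result was not tested. In *Zeb1* ∆M Metformin + LPS, neutrophil markers summed to 466 to 564 CPM, with *Ly6g*, *Ngp* and *Elane* at 0.

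**Figure D5:**
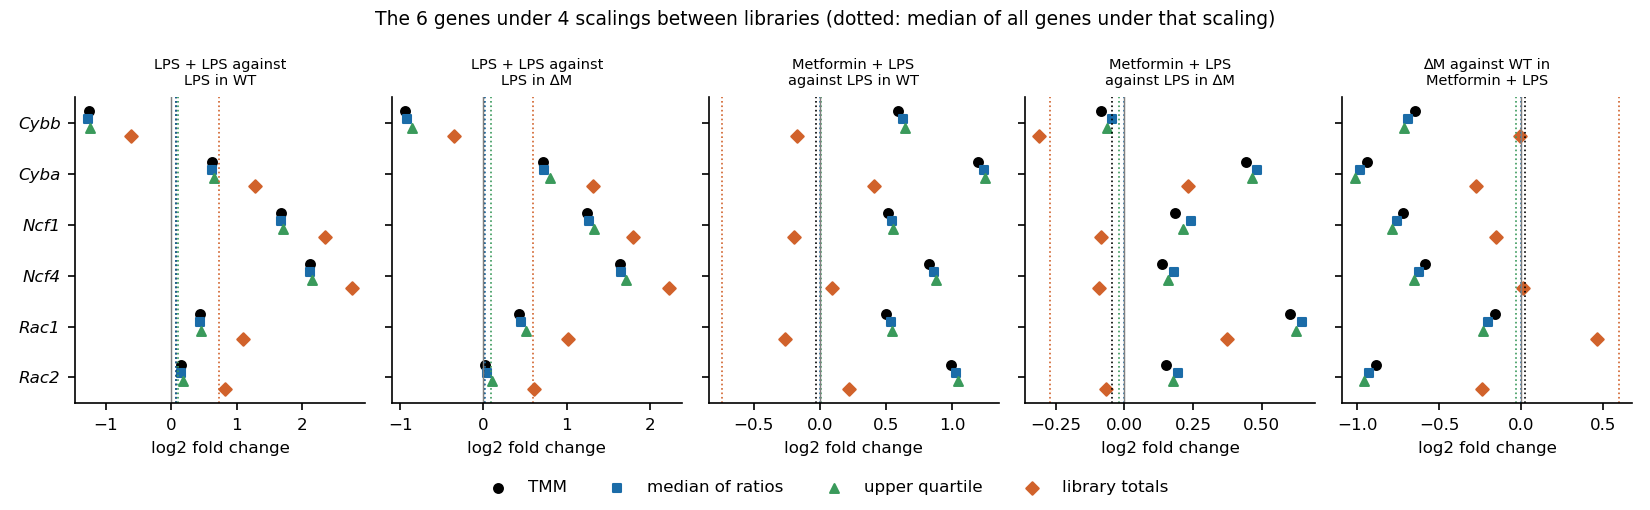
log2 fold change (x axis) of the 6 oxidase genes (y axis) in 5 comparisons under TMM, median-of-ratios and upper-quartile factors and with library totals alone; dotted lines are the median of all genes under each scaling. The library total points stand apart from the other 3 scalings in every panel, by about as much as the dotted line moves.

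Among 24 listed partners and regulators of the oxidase, 23 were tested. In *Zeb1* WT, 8 were higher and 5 lower in LPS + LPS than in LPS, and in *Zeb1* ∆M 8 and 4, beside the shares of all genes given above. The median log2 fold change of the list was 0.37 and 0.09. The 4 with the smallest adjusted p were shared by both genotypes. *Hvcn1*, the proton channel that balances the charge the oxidase moves, rose by 1.93 (SE 0.21, adjusted p = 1.2e-06) in *Zeb1* WT and 2.07 (SE 0.21, 8.1e-07) in *Zeb1* ∆M. *Pik3cg*, a phosphoinositide kinase upstream of assembly, rose by 2.53 (SE 0.27, 1.2e-06) and 2.90 (SE 0.28, 3.9e-07). *Fcgr1*, an Fc receptor whose engagement activates the oxidase, fell by 2.68 (SE 0.28, 6.0e-07) and by 3.01 (SE 0.28, 2.7e-07), and *Prkca*, a kinase of the organizer, by 2.62 (SE 0.29, 1.6e-06) and by 2.37 (SE 0.29, 5.8e-06).

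With Metformin, 7 of the 23 partners in *Zeb1* WT were higher and 3 lower (median 0.42, beside -0.03 over all genes), where the shares of all genes were 13% and 12.3%. In *Zeb1* ∆M 3 were higher and 2 lower (0.03, beside -0.04), where 12.6% and 13.6% of all genes were. *Hvcn1* fell by 1.47 (SE 0.22, adjusted p = 1.4e-04) in *Zeb1* WT and by 1.01 (SE 0.21, 0.0025) in *Zeb1* ∆M. *Arhgdib*, which holds Rac proteins inactive in blood cells, rose by 1.55 (SE 0.22, 1.1e-04) in *Zeb1* WT. *Zeb1* deletion called 0 of the 23 in LPS and in LPS + LPS, where 1.15% and 0.677% of all genes were called. In Metformin + LPS 2 of the 23 were lower, where 4.61% of all genes were, *Prkcd* (-0.97, SE 0.21, 0.010) and *Fcgr1* (-1.003, SE 0.26, 0.030).

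Of 7 other NADPH oxidase genes only *Nox1* and *Noxo1* passed the count filter, and neither was called in any comparison.

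Of 9 genes that remove superoxide and peroxide, 7 were higher in Metformin + LPS in *Zeb1* WT and 4 in *Zeb1* ∆M, and none was lower in either (medians 0.83 and 0.58, beside -0.03 and -0.04 over all genes), where 13% and 12.6% of all genes were higher and 12.3% and 13.6% lower. *Gpx1*, a glutathione peroxidase, rose by 2.91 (SE 0.31, adjusted p = 1.0e-05) and 2.08 (SE 0.30, 1.6e-04), and *Prdx2*, a peroxiredoxin, by 1.46 (SE 0.18, 3.2e-05) and 1.28 (SE 0.18, 1.2e-04). In LPS + LPS 3 were higher and 2 lower in *Zeb1* WT and 3 and 1 in *Zeb1* ∆M, beside the shares of all genes given above for LPS + LPS. The higher ones were *Prdx2* (0.88 and 0.84), *Gpx4* (0.70 and 0.82) and *Gpx1* (0.999 and 1.43). *Cat* (catalase) was lower by 0.75 (SE 0.16, 0.0012) and by 0.69 (SE 0.16, 0.0026). In Metformin + LPS 3 of the 9 were lower with *Zeb1* deletion, where 4.61% of all genes were, *Sod2*, the mitochondrial superoxide dismutase (-1.17, SE 0.26, 0.012), *Prdx5* (-0.99, SE 0.25, 0.025) and *Gpx1* (-1.01, SE 0.29, 0.049). These lists were not recomputed with library totals, under which the Metformin medians of all genes shift as given above.

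Of 15 factors known to act at the *Cybb* promoter, 14 were tested, and in LPS + LPS 2 were higher and 8 lower in *Zeb1* WT and 0 and 6 in *Zeb1* ∆M (medians -1.03 and -1.17, beside 0.08 and 0.01 over all genes), where 18.6% and 15.8% of all genes were higher and 18% and 16.9% lower. *Elf1* fell by 1.24 (SE 0.21, adjusted p = 1.5e-04) and by 1.15 (SE 0.21, 3.6e-04). *Irf1* fell by 2.19 (SE 0.48, 0.0015) in *Zeb1* WT and by 2.62 (SE 0.49, 4.5e-04) in *Zeb1* ∆M. *Spi1*, which encodes PU.1, rose by 0.81 in LPS + LPS in *Zeb1* WT (SE 0.22, adjusted p = 0.0062) and stood at 0.05 in *Zeb1* ∆M (SE 0.21, 0.88). It was lower by 0.84 with *Zeb1* deletion in Metformin + LPS (SE 0.22, 0.028) and by 1.25 in Metformin + LPS than in LPS in *Zeb1* ∆M (SE 0.22, 6.1e-04). The change of its genotype difference, tested as 1 contrast, was not called. From LPS to LPS + LPS it had -0.76 (SE 0.30, adjusted p = 0.61), and from LPS to Metformin + LPS -1.24 (SE 0.30, 0.10).

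Across the 18 libraries the genes of the complex did not share 1 pattern. On the log2 scale, *Ncf1* and *Ncf4* had a Pearson r of 0.78, *Cyba* and *Rac2* 0.75, *Cybb* and *Ncf4* -0.75, and *Cybb* and *Cyba* 0.07. These 18 libraries share 6 groups and 1 scaling, so the values are descriptions. Among 6449 genes with a mean log2 CPM of at least 3, the closest in pattern were *Lgals3bp* (r = 0.97), *Lamp2* and *Ifi205* for *Cybb*, *Atp6v0e* (0.96), *Arpc2* and *Psmb3* for *Cyba*, and *Vsir* (0.95), *Coro1a* and *Lst1* for *Ncf1*. For *Ncf4* they were *Clec4a2* (0.98), *Spp1* and *Ywhah*, and for *Rac1* *Lamp1* (0.88), *Aldh16a1* and *Raly*. *Tyrobp* and *Ctsh* were among the closest for *Rac2*.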

How the data were processed

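RNA from 18 libraries of sorted peritoneal macrophages was sequenced, 3 libraries for each of 6 groups and 2 to 3 pooled mice a library. The authors deposited 1 table of whole-number counts per gene, and the submitters' notes name STAR, RSEM, DESeq2 and GRCm38. RSEM gives estimated counts, so these may have been rounded. No column was left unmapped (0), and columns were tied to samples by name. Genes were filtered with filterByExpr, libraries scaled with TMM factors, and all 18 fitted together with edgeR 4.0.16 (R 4.3.3, limma 3.58.1), by quasi-likelihood tests with Benjamini-Hochberg adjustment over all genes tested. The procedure was tested on simulated data. Total counts ran from 14053700 to 30570400 per library, and intervals cover only the spread between these samples.

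Ratios of counts were compared by exact permutation. Pairwise likeness used log2 CPM with a prior count of 2. Alternatives were other scalings, no count filter, DESeq2 1.42.0, a replicate block, only the groups compared and each library left out. Library totals and upper-quartile factors were added after seeing the data. The 6 genes, all lists and markers were chosen with earlier results of these data known. From each list, up to 4 genes with the smallest adjusted p in a comparison are named, and for each of the 6 genes the 3 genes most like it in pattern. Some genes that this rule names, and 1 list, are not reported here. Promoters are RefSeq sequences of GRCm38.p6, with 3 of the 6 genes matched.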

Additional observations from a re-analysis of the deposited data

How the results depend on the processing

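Each group had only 3 libraries, and counts of calls moved with the settings. For *Zeb1* deletion in LPS all genes called went from 154 to 738 with no count filter and 489 with DESeq2 (55 to 232 with 1 library left out). In LPS + LPS they went from 91 to 640, 380 and, with only the groups compared, 0 (29 to 397), and members called from 0 to 1 with no filter (*Ncf1*). In Metformin + LPS they went from 789 to 1213 with no filter, 1301 with DESeq2, 505 with only the groups compared and 3598 with library totals (321 to 965). There 3274 were higher and 324 lower, against 169 and 620 with TMM. Members called there went from 2 to 4 with DESeq2, 0 with totals and 0 with only the groups compared (0 to 3). Interaction calls went from 0 to 2 with median-of-ratios or upper-quartile factors, 236 with no filter and 72 with DESeq2 for LPS + LPS (0 to 11), and from 21 to 601, 131 with totals, 44 with only the groups compared and 272 with DESeq2 for Metformin (3 to 70). Metformin calls in *Zeb1* WT went from 3392 (1744 higher, 1648 lower) to 5597 with totals (466 higher, 5131 lower), and members called from 3 to 0. Totals called 6 members in LPS + LPS in *Zeb1* WT (5 higher, 1 lower), against 3. The median log2 fold change of all genes there was 0.73 with totals, against 0.08 with TMM. In *Zeb1* ∆M, members called in LPS + LPS were 4 (2 to 3 with 1 library left out), and with Metformin 1 with only the groups compared, *Rac1*, against 0, while all genes called with Metformin were 3518 (2268 to 3148). The cause of these moves was not tested.

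Of values that changed sign, 18 did so under a setting and 23 with 1 library left out, and 0 were called in either fit. For *Zeb1* deletion in LPS, *Cybb* turned to -0.016 (median of ratios), -0.014 (upper quartile) and -0.015 (DESeq2). The *Rac1* interaction with LPS + LPS turned to 0.017, 0.019 (no filter), 0.055, 0.0098 (only the groups compared) and 0.017. With totals, *Rac2* turned to 0.048 for deletion in LPS, *Ncf4* and *Rac1* to 0.010 and 0.46 for deletion in Metformin + LPS, and the *Ncf1* Metformin interaction to 0.11. For Metformin with totals, *Cybb*, *Ncf1* and *Rac1* turned to -0.17, -0.20 and -0.26 in *Zeb1* WT, and *Ncf1*, *Ncf4* and *Rac2* to -0.084, -0.091 and -0.067 in *Zeb1* ∆M. With 1 library left out, deletion in LPS gave -0.058 to 0.11 for *Cybb* and -0.10 to 0.036 for *Rac2*, deletion in LPS + LPS -0.20 to 0.17 for *Cyba*, and deletion in Metformin + LPS -0.62 to 0.36 for *Rac1*. LPS + LPS gave -0.0038 to 0.27 (*Zeb1* WT) and -0.034 to 0.075 (*Zeb1* ∆M) for *Rac2*. Metformin gave -0.0086 to 0.97 for *Rac1* in *Zeb1* WT, and -0.21 to 0.019 for *Cybb* and -0.18 to 0.87 for *Ncf1* in *Zeb1* ∆M. The LPS + LPS interaction gave -0.076 to 0.36 for *Cyba*, -0.78 to 0.27 for *Ncf1*, -0.17 to 0.16 for *Rac1* and -0.20 to 0.030 for *Rac2*, and the Metformin interaction -0.68 to 0.37 for *Ncf1* and -0.34 to 0.64 for *Rac1*.

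The replicate block changed 0 of 54 calls of the 6 genes and moved no value by more than 0.161, with 167, 87 and 787 genes called for *Zeb1* deletion in LPS, LPS + LPS and Metformin + LPS. Same-numbered libraries correlated from -0.089 to 0.14, which cannot decide whether the numbers pair samples, and the sources used here do not say.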
